A study of Mus musculus with 16 samples.

Results

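The genes described are a list of 10 that act in glucose breakdown and in the response to low oxygen: Slc2a1, Hk2, Aldoa, Pgk1, Ldha, Pdk1, Egln3, Ddit4, Vegfa and Bnip3. They were chosen by name out of 55359 gene IDs in the count tables, with earlier results of these data known. The members also share their libraries, so shares of members given beside shares of all genes are a description. Their expression was read in the cerebral cortex of mouse fetuses at gestational day 16. All 10 passed the filter on low counts, which kept 21543 genes for testing.

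Total RNA was sequenced in 16 libraries, 8 from male and 8 from female fetuses. Within each sex there were 4 treatment groups of 2 libraries: Control, paternal EtOH (ethanol exposure of the father), maternal EtOH (of the mother) and Dual EtOH (of both). Each exposure therefore has 4 libraries. The labels name no strain, dose or duration of the exposure, and do not say whether the 2 libraries of a group came from separate fetuses or litters. The p-values therefore rest on library-to-library spread alone, some of which may be technical.

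Male libraries held 15336566 to 19966696 counts and female libraries 26134287 to 35218456, so a difference between the sexes cannot be told apart from one of depth. The 11 markers of the cortical excitatory lineage, such as Emx1 and Neurod2, were detected in every group and summed to 2477 to 3048 CPM (counts scaled to a fixed library total, with TMM, trimmed mean of M values, to align the libraries). Several libraries stood apart in composition. IDs without a symbol took 17.8% of counts in male dual replicate 2 and 14.2% in male paternal replicate 1, whose TMM factors were the lowest (0.835 and 0.876), against 1.96% to 8.49% in the other male and 1.73% to 2.43% in the female libraries. In the female dual libraries, genes annotated as TEC or sense-intronic took 0.872% and 0.86% of counts, against 0.28% to 0.534% in the other 14. In female control replicate 1, the markers of meninges and fibroblasts summed to 84.6 CPM, against 227 to 617 CPM in the other 15 libraries.

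Cells take up glucose through transporters, split it by glycolysis and, when oxygen is short, reduce the resulting pyruvate to lactate. Low oxygen stabilises hypoxia-inducible factor (HIF), a transcription factor that binds short DNA motifs and raises the expression of glycolytic enzymes and of genes for vessel growth and mitophagy. The embryonic cortex is a tissue in which progenitors depend heavily on glycolysis and in which vessels grow in while neurons are being made. In bulk tissue, fewer cells of a type and less RNA per cell cannot be told apart, which holds for each difference below.

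The changes in these genes were small. No member passed the test in any of the 3 comparisons of an exposure with control over both sexes. The 3 members that passed a test of 2 groups were each lower with dual exposure. Slc2a1 was lower than in the paternal and in the maternal group, Egln3 lower than in the paternal group, and Pgk1 lower than in control within females. Each of these calls was lost when protein-coding genes alone were scaled and tested, as given beside it.

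The members spanned a wide range of levels. Per kilobase of exon, mean expression over the 16 libraries was highest for Pgk1 (47.0 ± 3.14 CPM per kb, SD, n = 16), Ldha (44.1 ± 3.33 CPM per kb, SD, n = 16) and Aldoa (41.1 ± 3.14 CPM per kb, SD, n = 16). The means of neighbours among these 3 lay within about an SD of each other. Ddit4 followed at 32.4 ± 3.32 CPM per kb, then Slc2a1 at 17.2 ± 2.31 and Vegfa at 11.9 ± 1.83 CPM per kb, each apart from its neighbours by more than their SDs. Pdk1 (5.58 ± 0.538 CPM per kb), Egln3 (5.31 ± 0.791 CPM per kb) and Bnip3 (4.396 ± 0.627 CPM per kb) came next with overlapping spreads, and Hk2 was lowest at 2.09 ± 0.386 CPM per kb. All values below are CPM without this length correction, so they compare libraries within a gene. Members varied little between libraries: the coefficient of variation over all 16 ran from 6.69% for Pgk1 to 18.4% for Hk2.

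The 250 bases upstream of the transcription start are shown for Slc2a1, Egln3 and Pgk1, the members that passed a test, with the core motif bound by HIF in capitals. The letters searched were ACGTG and GCGTG on both strands, so that CACGT and CACGC are matches on the other strand and CACGTG counts once on each. Sequences are from RefSeq on the GRCm38.p6 build, 5′ to 3′ on the strand of the gene.
Slc2a1 (chr4:119108495-119108744, plus strand): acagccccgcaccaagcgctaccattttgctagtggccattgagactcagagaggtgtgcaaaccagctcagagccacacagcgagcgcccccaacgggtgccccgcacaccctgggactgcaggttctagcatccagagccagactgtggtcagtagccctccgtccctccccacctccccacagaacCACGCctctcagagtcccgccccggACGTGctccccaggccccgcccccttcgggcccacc
Egln3 (chr12:54203875-54204124, minus strand): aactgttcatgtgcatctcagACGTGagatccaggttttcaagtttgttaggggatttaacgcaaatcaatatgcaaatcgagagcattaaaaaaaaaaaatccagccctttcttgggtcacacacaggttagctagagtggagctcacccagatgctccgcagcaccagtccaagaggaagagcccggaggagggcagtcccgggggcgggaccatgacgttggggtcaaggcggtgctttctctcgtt
Pgk1 (chrX:106186850-106187099, plus strand): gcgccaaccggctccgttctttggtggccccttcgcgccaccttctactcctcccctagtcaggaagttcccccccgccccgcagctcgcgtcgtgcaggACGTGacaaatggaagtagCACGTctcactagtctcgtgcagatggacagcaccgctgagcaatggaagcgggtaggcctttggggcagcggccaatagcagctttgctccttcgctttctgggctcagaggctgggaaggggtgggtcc
Slc2a1 held a match 61 and another 36 bases before the start in this window, Egln3 a single match 229 bases before it, and Pgk1 a pair of matches at 150 and 131 bases. All 10 members matched the table, with 15 windows in all because of alternative starts, and each had a match in at least 1 window. In the order of the reference, window 1 of Vegfa, window 1 of Aldoa and window 2 of Pdk1 held no match. Vegfa had its matches in window 2 alone (chr17:46025164-46025413), away from window 1 (chr17:46032378-46032627). Windows 2 and 3 of Aldoa overlap and hold the same site, which is counted in both. Of the 15 windows 12 (80%) held either motif, against 12679 of the 32851 windows of all genes (38.6%). ACGTG alone was in 66.7% of the members' windows and in 16.6% of all windows. The list was chosen to hold genes of the response to low oxygen, HIF targets among them, so this surplus is no independent result. The windows of all genes were not matched to those of the members in base composition. A match describes these letters and is not a measured binding site.

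**Figure D1:**
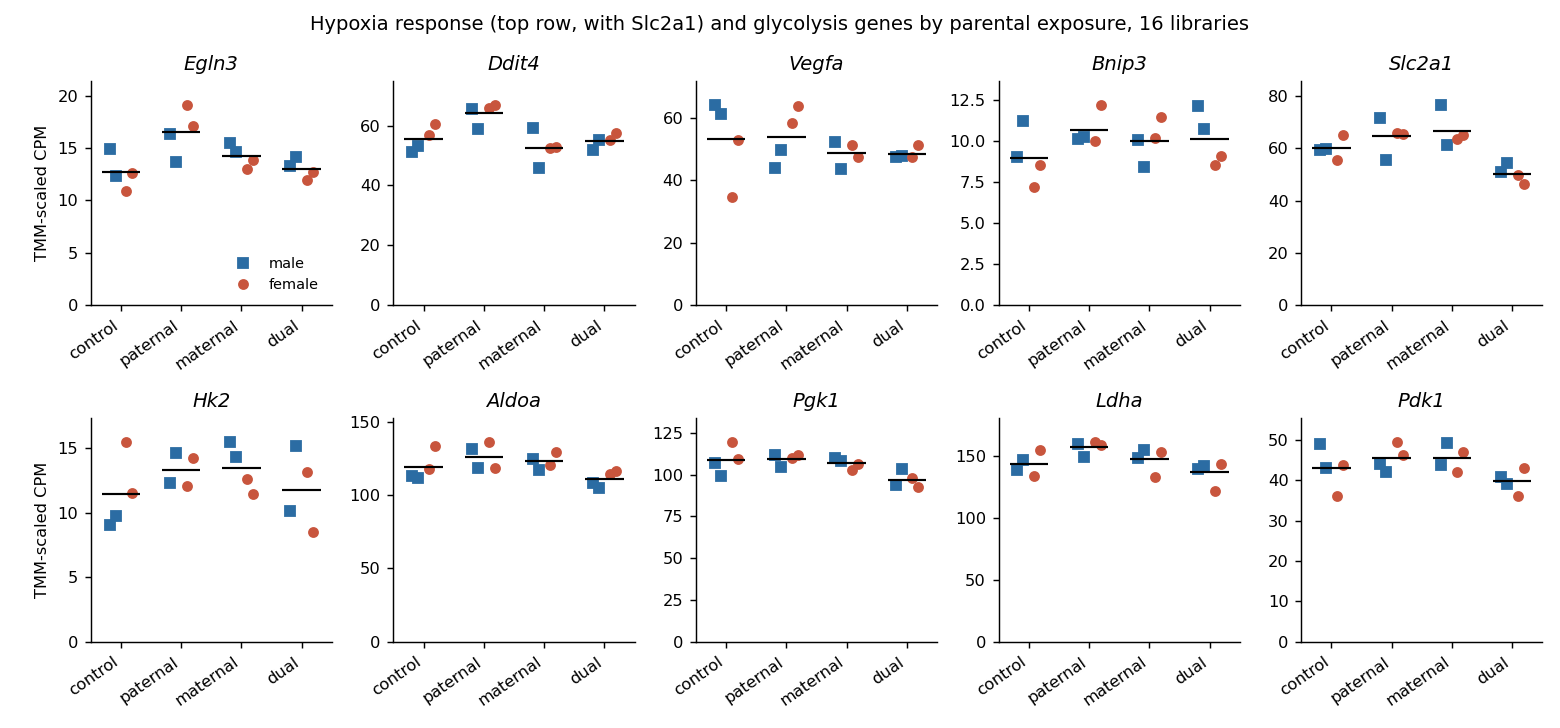
Expression of the 10 genes in TMM-scaled CPM (vertical axes, from 0) by parental exposure (horizontal axes). Blue squares are male and red circles female libraries, 2 of each per exposure, and black bars are means of 4 libraries. For Slc2a1 all 4 dual libraries, at 46.5 to 54.3 CPM, lie under the other 12.

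Slc2a1 encodes GLUT1, the glucose transporter of the blood-brain barrier, of red blood cells and of many dividing cells. In the male libraries it stood at 59.4 and 59.9 CPM in controls, 71.8 and 55.5 with paternal, 76.5 and 61.3 with maternal and 50.9 and 54.3 with dual exposure. In the female libraries it stood at 55.5 and 65.0 CPM in controls, 65.9 and 65.6 with paternal, 63.6 and 65.1 with maternal and 49.7 and 46.5 with dual exposure. All 4 dual libraries were lower than each of the other 12, while the control, paternal and maternal groups overlapped.

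Group means of Slc2a1 were 59.9 ± 3.86 CPM in control, 64.7 ± 6.77 in paternal, 66.6 ± 6.78 in maternal and 50.3 ± 3.23 in dual libraries (SD, n = 4). Dual exposure was lower than maternal exposure by 24.5%, a log2 fold change of -0.41 ± 0.08 (SE), with an edgeR adjusted p of 0.00858. It was lower than paternal exposure by 22.2%, a log2 fold change of -0.36 ± 0.08, with an edgeR adjusted p of 0.0123. Against control the log2 fold change was -0.25 ± 0.08 and did not pass (edgeR adjusted p = 0.104). The comparisons share the dual libraries and are not independent of each other.

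Both calls for Slc2a1 held with DESeq2's size factors in the edgeR fit and ended with protein-coding genes alone, which changes both the scaling and the genes tested (15056). There the log2 fold change was -0.36 against maternal (edgeR adjusted p = 0.0756) and -0.31 against paternal exposure (0.0814). Leaving out male dual replicate 1 ended both calls (edgeR adjusted p = 0.0561 and 0.0729), as did leaving out male maternal replicate 1 for the first (0.0534) and male paternal replicate 1 (0.0858) or female dual replicate 2 (0.0543) for the second. Male paternal replicate 1 is one of the libraries with a high share of IDs without a symbol. Within males the differences were -0.39 and -0.27 and passed neither test (edgeR adjusted p = 0.532 and 0.564). Within females they were -0.42 and -0.45 and passed both (0.0385 and 0.0199).

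On average, markers of blood vessels and blood were lowest in the dual libraries, as Slc2a1 was, but single libraries did not all follow Slc2a1. Female control replicate 1 had the lowest endothelial sum of all 16, at 209 CPM, with Slc2a1 at 55.5 CPM. The 10 endothelial markers, none of them at 0, summed to 213 to 269 CPM in dual libraries, against 303 to 332 in paternal, 304 to 338 in maternal and 209 to 333 in control libraries. Of these 10 markers, 5 (Pecam1, Cdh5, Tie1 and Tek among them) were lower with dual than with paternal exposure, where 2.16% of all genes passed as lower. Against maternal exposure 5 were lower (Pecam1, Esam, Cdh5 and Tek among them), where 1.34% of all genes did, and against control 2 were (Pecam1 and Tie1), where 0.641% did. Pecam1, a surface protein of endothelial junctions, fell by 0.51 on the log2 scale against paternal (edgeR adjusted p = 0.00293) and by 0.54 against maternal exposure (0.0028).

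Erythroid markers summed to 369.9 to 525 CPM in dual libraries, against 476 to 1195 in paternal, 569.5 to 964 in maternal and 542 to 703 in control libraries. The paternal extremes ran opposite to Slc2a1. Male paternal replicate 1 had 476 CPM of these markers and 71.8 CPM of Slc2a1, and male paternal replicate 2 had 1195 and 55.5 CPM. Of 10 erythroid genes 9 were tested, and Hbb-bs, Hbb-bt and Hba-a1, globin genes, were lower with dual than with either single exposure. Hbb-bh1, an embryonic globin, was at 0 in the dual and maternal libraries and also in the male controls. With protein-coding genes alone, Pecam1 kept both calls against single exposures (edgeR adjusted p = 0.033 and 0.0472) and Hbb-bs kept that against paternal exposure (0.0182). The other calls named here were lost, with edgeR adjusted p of 0.0756 to 0.147 for Cdh5, Tie1, Tek and Esam against single exposures, 0.125 and 0.128 for Pecam1 and Tie1 against control, and 0.0738 to 0.171 for the globins. The part of these cell types in the Slc2a1 difference was not tested.

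**Figure D2:**
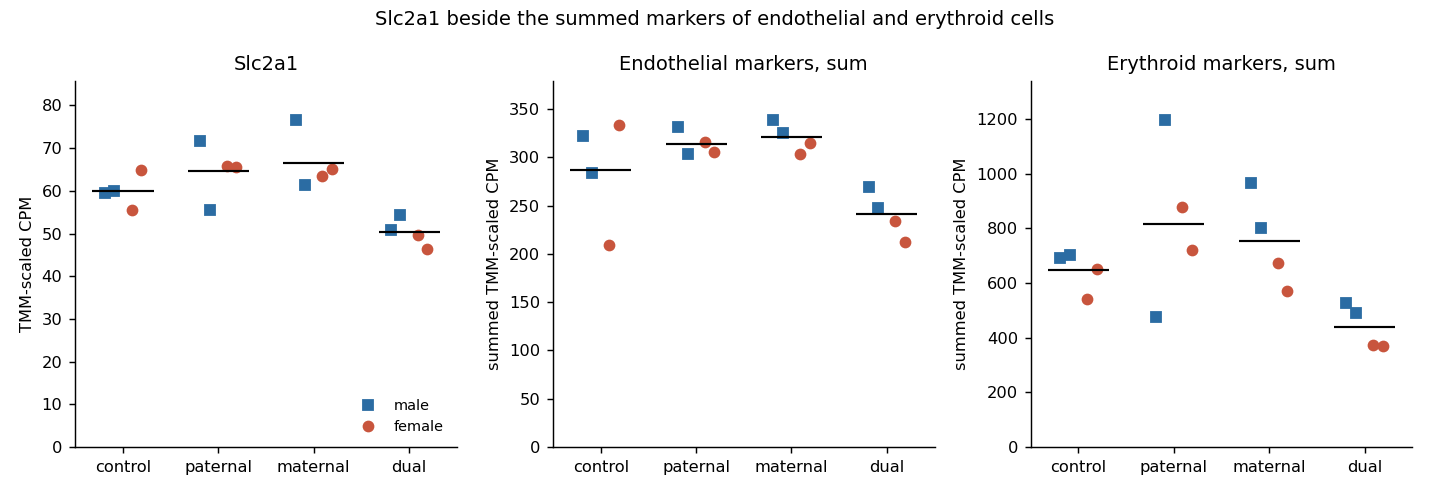
Slc2a1 (left), the sum of 10 endothelial markers (middle) and the sum of 10 erythroid markers (right) in each library, in TMM-scaled CPM from 0, by parental exposure. Squares are male and circles female libraries and bars are means of 4. All 3 values are lowest on average in the dual libraries, and for endothelial markers female control replicate 1, at 209 CPM, lies under them all.

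Markers of other cell types were followed in the same way. Pericyte markers summed to 169 to 228 CPM in dual, 234 to 246 CPM in paternal, 225 to 251 CPM in maternal and 182 to 263 CPM in control libraries. Of these, 3 of 6 (Rgs5, Kcnj8 and Pdgfrb) were lower with dual than with paternal exposure. In that comparison 2.16% of all genes passed as lower and 8.81% in either direction, which holds for each count against paternal exposure here. Markers of microglia and macrophages summed to 41.8 to 67.6 CPM in dual and 80.7 to 106 CPM in paternal libraries, with 3 of 8 (Csf1r, Mrc1 and C1qa) lower. Control libraries, at 46.6 to 83.3 CPM, and maternal ones, at 60.7 to 84.9 CPM, overlapped with the dual ones. Meningeal markers summed to 227 to 384 CPM in dual and 433 to 587 CPM in paternal libraries, with no overlap. Control libraries, at 84.6 to 503 CPM, and maternal ones, at 371 to 617 CPM, overlapped with the dual ones. All 9 had negative log2 values for dual against paternal exposure, with a median of -0.82, and 1 (Foxc1) passed. Of the 6 genes in the thalamic list 1 (Lhx2) passed as lower, while 4 had positive values and 2 negative ones, with a median of 0.01. Of the 9 striatal and the 11 cortical markers none passed by edgeR's test in any pooled comparison. Each of the calls named against paternal exposure for pericytes, microglia, meninges and thalamus was lost with protein-coding genes alone (edgeR adjusted p = 0.0674 to 0.159). Within females 1 of the 9 meningeal markers, Ogn, was higher with dual exposure than in control, where 9.34% of all genes passed as higher. It kept this call with protein-coding genes alone (1.77 on the log2 scale, edgeR adjusted p = 0.0113). The controls there include female control replicate 1, at 84.6 CPM of meningeal markers. The part of these cell types in the differences of Slc2a1 and Egln3 between dual and paternal exposure was not tested.

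Hk2 encodes a hexokinase, which traps glucose in the cell as its phosphate, and was the least expressed member per kilobase of exon. In males it stood at 9.04 and 9.78 CPM in controls, 12.3 and 14.6 with paternal, 15.5 and 14.3 with maternal and 10.1 and 15.2 with dual exposure. In females it stood at 15.5 and 11.6 CPM in controls, 12.1 and 14.3 with paternal, 12.7 and 11.5 with maternal and 13.2 and 8.52 with dual exposure. Both male controls lay below the other 6 male libraries, and female libraries overlapped between all groups.

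The difference in Hk2 between maternal exposure and control was 0.66 ± 0.22 in males and -0.16 ± 0.21 in females on the log2 scale. Neither passed (edgeR adjusted p = 0.59 and 0.98), nor did the difference between the sexes of 0.83 ± 0.30 (0.419). For dual exposure the values were 0.42 ± 0.23 in males and -0.32 ± 0.21 in females, with an edgeR adjusted p of 0.185 for the difference of 0.74 ± 0.31. Leaving out female control replicate 2 brought that sex difference under the threshold (edgeR adjusted p = 0.0452).

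Aldoa encodes aldolase A, which splits fructose bisphosphate into its triose phosphates. It stood at 113 and 112 CPM in male controls, 132 and 118 with paternal, 125 and 117 with maternal and 108 and 105 with dual exposure. Female libraries had 118 and 133 CPM in controls, 136.3 and 119 with paternal, 120.3 and 129.5 with maternal and 114 and 117 with dual exposure. The 4 dual libraries lay below all paternal and all maternal ones and overlapped with controls. The log2 fold change of dual exposure was -0.19 ± 0.06 against paternal (edgeR adjusted p = 0.0636) and -0.15 ± 0.06 against maternal exposure (0.161).

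Pgk1 encodes phosphoglycerate kinase, the first step of glycolysis that yields ATP. Male libraries had 107 and 99.3 CPM in controls, 111 and 105 with paternal, 110.0 and 108 with maternal and 94.0 and 103 with dual exposure. Female libraries had 119.6 and 109.5 CPM in controls, 109.7 and 112 with paternal, 103 and 106 with maternal and 97.8 and 92.5 with dual exposure. Dual libraries lay below all paternal ones and, within females, below all 6 others.

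In females Pgk1 was 16.9% lower with dual exposure than in control, a log2 fold change of -0.27 ± 0.07 with an edgeR adjusted p of 0.0239. It was the only member of 10 that passed there, and 5.64% of all genes passed as lower, 15% in either direction. In males the change was -0.07 ± 0.08, and the difference between the sexes, 0.20 ± 0.11, did not pass (edgeR adjusted p = 0.305). The female call ended with protein-coding genes alone (-0.19, edgeR adjusted p = 0.134), with only the compared groups in the fit (0.144), and without female control replicate 1 (0.102) or female dual replicate 2 (0.175).

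Ldha encodes the A subunit of lactate dehydrogenase, which reduces pyruvate to lactate. Among males it was at 138 and 147 CPM in controls, 159.6 and 149 with paternal, 148 and 155 with maternal and 139 and 141 with dual exposure. Among females it was at 134 and 154 CPM in controls, 161 and 158 with paternal, 133 and 152.5 with maternal and 122 and 144 with dual exposure. All 4 paternal libraries were above all 4 dual ones. The log2 fold change of dual against paternal exposure, -0.20 ± 0.07, did not pass (edgeR adjusted p = 0.0625).

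Pdk1 encodes pyruvate dehydrogenase kinase, which keeps pyruvate out of the mitochondrial cycle. It stood at 49.1 and 43.0 CPM in male controls, 43.9 and 41.9 with paternal, 43.7 and 49.2 with maternal and 40.8 and 39.1 with dual exposure. Female values were 36.1 and 43.7 CPM in controls, 49.5 and 46.2 with paternal, 42.1 and 46.9 with maternal and 36.0 and 43.1 with dual exposure. All groups overlapped. Dual exposure differed by -0.19 ± 0.08 from paternal and by -0.19 ± 0.08 from maternal exposure on the log2 scale, and neither passed (edgeR adjusted p = 0.164 and 0.182).

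Egln3 encodes a prolyl hydroxylase that marks HIF for degradation and is itself a HIF target, which makes it a feedback inhibitor. Male values were 14.9 and 12.3 CPM in controls, 16.4 and 13.6 with paternal, 15.5 and 14.7 with maternal and 13.3 and 14.2 with dual exposure. Female values were 10.95 and 12.7 CPM in controls, 19.1 and 17.1 with paternal, 13.0 and 13.9 with maternal and 11.9 and 12.7 with dual exposure. The 2 female paternal libraries were the highest of all 16, and the groups of 4 overlapped.

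Dual exposure was lower than paternal exposure in Egln3 by 21.1%, a log2 fold change of -0.34 ± 0.10 with an edgeR adjusted p of 0.0439. Within females this difference was -0.56 (edgeR adjusted p = 0.0156) and within males -0.12 (0.864). The call ended with protein-coding genes alone (edgeR adjusted p = 0.149), with no filter on low counts (0.0604), with the replicate number as a block (0.0512) and without any 1 of 11 of the 16 libraries, with values up to 0.197 without male paternal replicate 1. The 5 whose removal kept it were the 4 controls and male paternal replicate 2.

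Paternal exposure itself against control gave an Egln3 log2 fold change of 0.62 ± 0.14 in females, from 11.8 ± 1.201 to 18.1 ± 1.42 CPM (SD, n = 2), and 0.13 ± 0.15 in males. The female change did not pass (edgeR adjusted p = 0.225), and neither did the difference between the sexes, -0.48 ± 0.20 (0.418). DESeq2 placed the female change under the threshold (adjusted p = 0.033), as did the fit with no filter (0.0229) and that without female control replicate 2 (0.0183). In the same comparison all 9 meningeal markers had positive values, with a median of 1.08, female control replicate 1 being the library at 84.6 CPM, and their part in the Egln3 result was not tested.

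Ddit4 encodes REDD1, an inhibitor of the growth kinase complex mTORC1 that is induced by low oxygen and other stresses. In males it stood at 51.2 and 53.2 CPM in controls, 65.4 and 58.7 with paternal, 59.2 and 45.9 with maternal and 51.8 and 55.1 with dual exposure. In females it stood at 56.8 and 60.6 CPM in controls, 66.0 and 66.8 with paternal, 52.6 and 52.8 with maternal and 55.3 and 57.6 with dual exposure. Within each sex both paternal libraries were above both controls. Over both sexes the change with paternal exposure was 0.21 ± 0.07 (edgeR adjusted p = 0.462), and that of dual against paternal exposure was -0.22 ± 0.07 (0.0581), with all 4 dual libraries below all 4 paternal ones.

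Vegfa encodes the main growth factor for blood vessels. In males it stood at 64.0 and 61.1 CPM in controls, 43.9 and 49.7 with paternal, 52.2 and 43.7 with maternal and 47.4 and 47.9 with dual exposure. In females it stood at 34.5 and 52.7 CPM in controls, 58.2 and 63.6 with paternal, 51.4 and 47.3 with maternal and 47.3 and 51.4 with dual exposure. Both male controls were above the other 6 male libraries, and both female paternal libraries were above the other 6 female ones.

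The Vegfa change with paternal exposure was -0.42 ± 0.15 in males and 0.48 ± 0.14 in females, and the difference between the sexes was -0.90 ± 0.20 on the log2 scale. Its edgeR adjusted p was 0.295. DESeq2 gave 0.0322 and the fit with no filter 3.41e-06, so the call rested on the tool and the filter. Female control replicate 1, the library low in meningeal markers, also had the lowest Vegfa of all 16. Without it the difference was -0.62 (edgeR adjusted p = 0.0853), and without female control replicate 2 it was -1.23 (6.39e-05). For maternal and dual exposure the sex differences were -0.56 ± 0.20 and -0.57 ± 0.20 (edgeR adjusted p = 0.419 and 0.126). With single libraries left out they ran from -0.90 to -0.29 and from -0.90 to -0.30. Female control replicate 2, at 52.7 CPM, lay above each female maternal and dual library. All 3 differences share the control libraries. The part of the composition of that library in this result was not tested.

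Bnip3 encodes a mitochondrial receptor for mitophagy that HIF induces. In males it stood at 9.04 and 11.2 CPM in controls, 10.1 and 10.3 with paternal, 10.1 and 8.41 with maternal and 12.2 and 10.7 with dual exposure. In females it stood at 7.18 and 8.57 CPM in controls, 10.04 and 12.2 with paternal, 10.2 and 11.5 with maternal and 8.53 and 9.13 with dual exposure. In females both paternal and both maternal libraries were above both controls, by log2 changes of 0.50 ± 0.16 and 0.46 ± 0.16 that did not pass (edgeR adjusted p = 0.416 and 0.98). In males the same changes were 0.01 ± 0.17 and -0.13 ± 0.17.

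**Figure D3:**
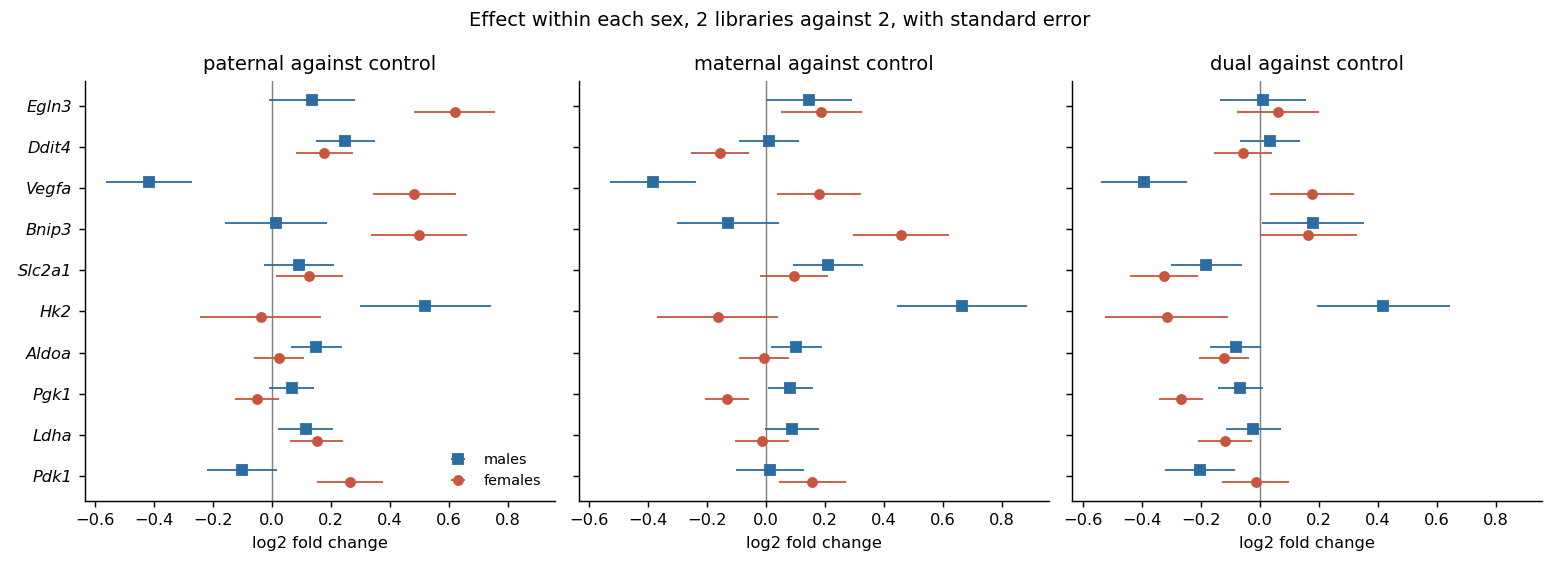
Log2 fold change against control (horizontal axes) of each gene within males (squares) and within females (circles), 2 libraries against 2, with standard errors from edgeR as bars. For Vegfa the male values, -0.42 to -0.38, lie left of 0 and the female values right of it under all 3 exposures, and for Hk2 males lie right and females left.

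Paternal exposure against control had all 10 members with a positive log2 fold change, against 47.5% of all genes, with a median of 0.12, against -0.01 over all genes. The 11 cortical markers gave 10 positive values and 1 negative value, with a median of 0.09. No member passed edgeR's test, as did 0% of the 21543 genes. At an unadjusted p under 0.05 there were 3 members (Egln3, Ddit4 and Bnip3), against 8.45% of all genes, and DESeq2 called 0 members. Maternal exposure gave 7 positive and 3 negative values, against 48.9% positive over all genes, with a median of 0.07. None of the members and 0% of all genes passed edgeR's test, and no member had an unadjusted p under 0.05, against 3.79% of all genes, with 0 called by DESeq2.

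Dual exposure against control gave 3 positive and 7 negative values, against 49.9% negative over all genes, with a median of -0.09. None of the 10 passed edgeR's test, against 3.36% of all genes, while 2 (Slc2a1 and Pgk1) had an unadjusted p under 0.05, against 19.7% of all genes, and DESeq2 called 0. Without female control replicate 1 Slc2a1 and Vegfa passed (edgeR adjusted p = 0.022 and 0.0392), and without female control replicate 2 Pgk1 did (0.039). Slc2a1 was the 1 member with all 4 libraries below the controls, against 2.13% of all genes.

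Dual against paternal exposure gave 10 negative values, against 50.6% of all genes, with a median of -0.19, against 0.00 over all genes. The 11 cortical markers gave 10 negative values and 1 positive value, with a median of -0.13. At an unadjusted p under 0.05 there were 7 members, against 24.6% of all genes. Slc2a1 and Egln3 passed, 2 of 10, against 2.16% of all genes that passed as lower and 8.81% in either direction. In 5 of 10 members (Slc2a1, Ddit4, Ldha, Pgk1 and Aldoa) all 4 dual libraries were lower than all 4 paternal ones, against 5.9% of all genes. Pairs of these 5 had Pearson's r of 0.338 to 0.781 over the 16 libraries, after taking away the mean of each sex. They are therefore not independent of each other. Pgk1, Ddit4, Ldha and Aldoa had edgeR adjusted p between 0.0518 and 0.0636. They passed together with Slc2a1 and Egln3 when only the groups compared were in the fit. That fit called 6 of 10 members, against 12.6% of the 20607 genes it tested, in either direction. With protein-coding genes alone 0 of 10 passed, as did 1.38% of all genes, and within males 0 of 10 did.

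Dual against maternal exposure gave 8 negative and 2 positive values, against 49.6% negative over all genes, with a median of -0.14. The 11 cortical markers gave 10 negative values and 1 positive value, with a median of -0.08. At an unadjusted p under 0.05 there were 4 members, against 21.1% of all genes. Slc2a1 alone passed, against 1.34% of all genes that passed as lower and 5.76% in either direction. In 2 members, Slc2a1 and Aldoa, all 4 dual libraries were lower, against 4.81% of all genes.

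**Figure D4:**
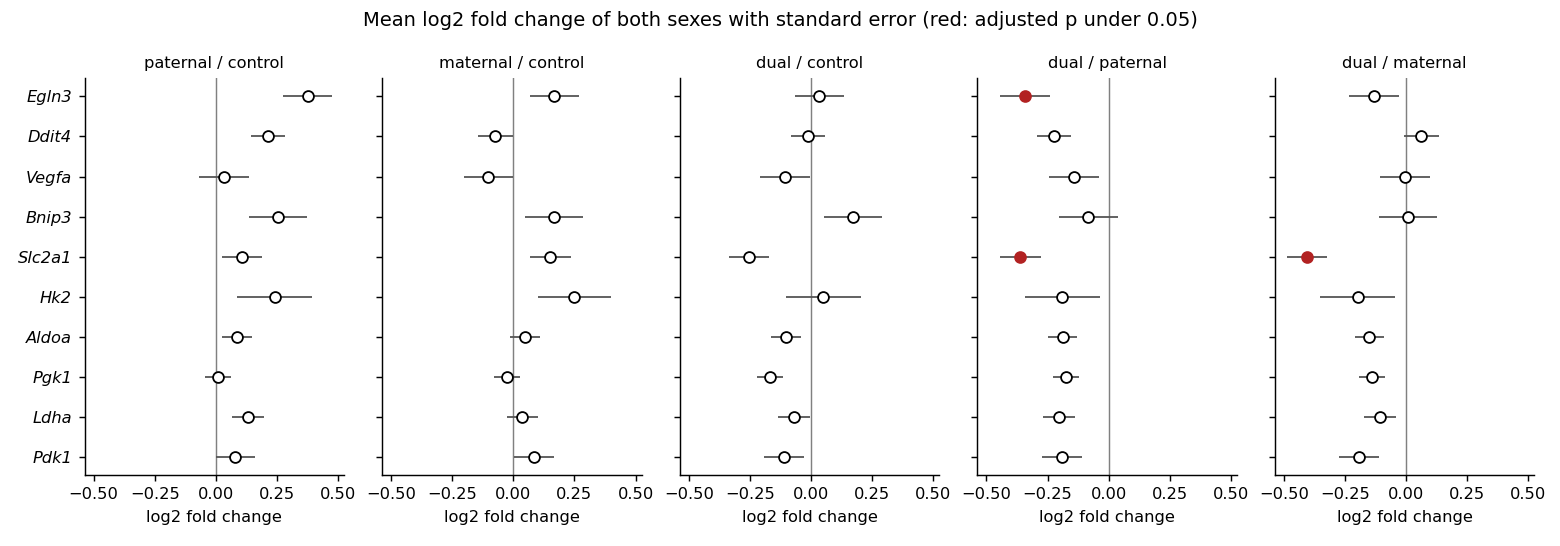
Log2 fold change (horizontal axes) of each gene, as the mean of the male and the female difference, for 5 comparisons. Points are edgeR estimates with standard errors, red where the adjusted p was under 0.05. The red points are Slc2a1 and Egln3 against paternal exposure and Slc2a1 against maternal exposure, and all 10 points lie left of 0 for dual against paternal exposure.

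Whether dual exposure equals the sum of the single ones was tested as the dual effect minus the paternal and maternal effects. All 10 members had negative values, against 49.7% of all genes, with a median of -0.24, against 0.00 over all genes, and the same control libraries enter all 3 effects. At an unadjusted p under 0.05 there were 5 members, against 19.6% of all genes. Slc2a1 alone passed, at -0.51 ± 0.12 (edgeR adjusted p = 0.0203), against 0.724% of all genes that passed as lower and 4.21% in either direction. The call ended with protein-coding genes alone (-0.46, edgeR adjusted p = 0.12), within males (-0.48, 0.255) and females (-0.55, 0.104), and without any 1 of 6 libraries: male control replicate 2 (0.0563), male paternal replicate 1 (0.0613), male maternal replicate 1 (0.0568), male dual replicate 1 (0.068), female maternal replicate 2 (0.0516) and female dual replicate 2 (0.0538). Egln3 was at -0.51 ± 0.14 (edgeR adjusted p = 0.0537), and DESeq2 called it as well (adjusted p = 0.0383). In the same comparison all 10 endothelial markers had negative values, with a median of -0.64 and 4 called. All 9 meningeal markers did, with a median of -1.26 and 3 called. The 11 cortical markers were all negative as well, with a median of -0.22 and none called. Of the 9 striatal markers 7 were positive and 2 negative, with a median of 0.22. The part of these cell types in the Slc2a1 result, or in the signs of the members, was not tested.

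The difference between males and females was tested for each exposure against control, and none of the 10 members passed edgeR's test. For paternal and maternal exposure 0% of all genes passed as well, and 3 members each had an unadjusted p under 0.05, against 10.8% and 9.86% of all genes. For dual exposure 3.5% of all genes passed, and 2 members (Vegfa and Hk2) had an unadjusted p under 0.05, against 20.4%. DESeq2 called Vegfa for paternal exposure, and no member for the others. Within 1 sex, no member passed for paternal or maternal exposure, or for dual exposure in males, as did 0% of all genes by edgeR's test. At an unadjusted p under 0.05 there were 3 members for paternal exposure in males (10.4% of all genes) and 4 in females (7.89%), 2 for maternal exposure in males (7.92%) and 1 in females (4.7%), and 1 for dual exposure in males (4.86%). DESeq2 called Egln3 for paternal exposure in females and no member in the others. For dual exposure in females, where Pgk1 passed, 2 members were under that p, against 29.9% of all genes.

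The rest of the pathway was followed in 3 further lists. Of 32 further genes of glycolysis and glucose handling tested, 0 passed against control for any exposure over both sexes. Of all genes 0% passed for either single exposure and 3.36% for dual exposure. With dual exposure 25 of 32 had a negative value, against 49.9% of all genes, with a median of -0.08. Against paternal exposure 2 of 32 were lower, where 2.16% of all genes passed as lower and 8.81% in either direction. Gapdh, glyceraldehyde phosphate dehydrogenase, fell by 0.19 from a mean of 594 to 519 CPM (edgeR adjusted p = 0.0368). Eno1, an enolase, fell by 0.18 from 225 to 199 CPM (edgeR adjusted p = 0.0435). Both calls were lost with protein-coding genes alone (0.184 and 0.212).

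Within females 6 of these 32 were lower and 1 higher with dual exposure than in control, where 5.64% of all genes passed as lower and 9.34% as higher. Gapdh fell by 0.38 (edgeR adjusted p = 0.00384), Ldhb, the B subunit of lactate dehydrogenase, by 0.37 (0.0102) and Bpgm, which makes bisphosphoglycerate, by 0.39 (0.0131). Pfkp, a phosphofructokinase, was higher by 0.88 (edgeR adjusted p = 0.0156). With protein-coding genes alone Gapdh (0.0303) and Pfkp (0.0331) kept their calls, and Ldhb (0.0631) and Bpgm (0.0732) did not. The female dual libraries are those with the raised share of TEC and sense-intronic genes, which the fit of protein-coding genes alone leaves out.

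Of 32 further HIF targets tested, 0 passed in the 3 pooled comparisons with control or in those of dual with a single exposure. Of all genes 0% to 8.81% passed in these. For dual exposure within females 1 of 32 passed, Wsb1, a ubiquitin ligase subunit. There 9.34% of all genes passed as higher and 15% in either direction. Wsb1 was higher than in control by 0.49 (edgeR adjusted p = 0.00572) and kept this call with protein-coding genes alone (0.0121). Its female means were 154 CPM with dual, 151 with paternal and 147 with maternal exposure and 109.8 CPM in controls, against 154 CPM in male controls, so the female controls were the low group. Of 13 genes of oxygen sensing and the HIF complex none passed in the pooled comparisons. Within females 3 of 13 were lower with dual exposure, against the same 5.64% of all genes: Arnt2, a HIF partner, fell by 0.30 (edgeR adjusted p = 0.00594), Elob, a subunit of the ligase that degrades HIF, by 0.34 (0.0103) and Egln2, another HIF hydroxylase, by 0.39 (0.0234). All 3 calls were lost with protein-coding genes alone (0.0559, 0.0689 and 0.104).

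Copies that could share reads took few counts. Those of Pgk1 (4 genes) held 0.131% of the counts of Pgk1, those of Aldoa (5 genes) 1.18% and those of Ldha (3 genes) 0.341%. A second ID also carries the symbol Aldoa and is counted among its copies. It held 1.115% of the counts of the ID used here, ENSMUSG00000030695.17. How the authors counted reads that map to several places is not given in the sources used here, so small shares of these 3 values are uncertain.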

How the data were processed

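RNA of 16 libraries of mouse fetal cortex was counted per gene. The authors deposited raw counts, 1 table per library. Per the submitters' processing notes they used Trimmomatic, STAR and featureCounts on GRCm39 (mm39). For versions, annotation release, strand setting and multi-mapping, the sources used here give nothing. IDs were matched to GENCODE M21 symbols for 52083 of 55359. That reference is of another build, so it gave names, gene classes and exon lengths, and promoter windows are those of GRCm38.p6.

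In R 4.3.3, filterByExpr kept genes (minimum count 10, total 15), and TMM scaling was followed by the two-sided quasi-likelihood test of edgeR 4.0.16 (glmQLFTest after glmQLFit). A single model held the 8 groups, with 8 residual degrees of freedom. Comparisons over both sexes weight the sexes equally. Adjusted p-values are Benjamini-Hochberg values over 21543 genes, called under 0.05. The fit was also run on simulated counts with the same spread for all genes and libraries and no composition differences between libraries. The data depart from that setting, so the run does not bear on the calls given here. Replicates of all groups differed by more than counting noise (median squared difference 1.42 to 4.08 against 0.455).

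Alternatives were DESeq2 1.42.0, its size factors, protein-coding genes alone, no filter, a replicate block, an additive model, the compared groups alone and leaving out each library, where the lone library left in a group is assumed to vary like the other groups. Fits within each sex for dual against single exposures were chosen after seeing the data. The members and gene lists were chosen with earlier results of these data known. All members are named in the text, and the genes most like Aldoa are not reported here. From the 3 pathway lists, genes that passed are named, up to 4 of smallest p per comparison. The rule also named 2 per list where none passed, which the text leaves out. Marker genes are named where they passed between 2 exposure groups over both sexes, up to 4. Those that passed within 1 sex or in the test of additivity are not named, apart from Ogn.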

Additional observations from a re-analysis of the deposited data

Results flagged for a closer look

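In Vegfa the highest of the 4 dual libraries, female dual replicate 2 at 51.4 CPM, was far from the other 3, which lay between 47.3 and 47.9 CPM. In Bnip3 the highest of the 4 paternal libraries, female paternal replicate 2 at 12.2 CPM, was far from the other 3, at 10.04 to 10.3 CPM. Extreme libraries were sought in 40 groups of 4, and chance alone marks about 1 in 20. For Slc2a1 the dual effect and the added paternal and maternal effects were unequal by the test of their difference, -0.51 on the log2 scale.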

How the results depend on the processing

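No count of members called moved by over 1.5 times with DESeq2's size factors, with the additive model or with the replicate block. With the replicate block the counts equalled those of the fit without it, at 2 for dual against paternal exposure, 1 for dual against maternal exposure, 1 for the departure from additivity, 1 for dual exposure in females and 0 elsewhere. In the first, Ldha (edgeR adjusted p = 0.0404) took the place of Egln3 (0.0512). Same-numbered libraries did not deviate together: 28 correlations of their deviations ran from -0.143 to 0.183.

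For dual against paternal exposure the count of 2 became 0 with protein-coding genes alone, 4 with no filter, 6 with only the groups compared and 0 in males alone. The fits with no filter and with only the groups compared called 6.87% and 12.6% of all genes they tested, against 8.81% in the model of all 16 libraries. For dual against maternal exposure the count of 1 became 0 with protein-coding genes alone and 0 in males alone. For the departure from additivity the count of 1 became 0 with protein-coding genes alone, 0 in males, 0 in females and 2 with DESeq2. DESeq2 called 5.49% of all genes there, against 4.21%. For dual exposure in females the count of 1 became 0 with protein-coding genes alone, 2 with no filter and 0 with only the groups compared. No filter gave 9.69% of all genes there, against 15%. With no filter, counts of 0 became 1 for dual exposure over both sexes (3.59% of all genes) and 1 for each of the 3 sex differences (0.741% to 4.11%). They became 1 for paternal exposure in males (0.736%) and 2 in females (0.992%). DESeq2 gave 1 for the sex difference of paternal exposure (0.0975% of all genes) and 1 for paternal exposure in females (0.19%). The compared groups alone gave 1 for paternal exposure in males (0.47%). Fitting only the compared groups gives no separate value for the departure from additivity, which uses all 8.

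Leaving out each library in turn, counts ran from 0 to 2 for dual exposure, 0 to 6 for dual against paternal, 0 to 1 for dual against maternal, 0 to 4 for the departure from additivity, 0 to 1, 0 to 1 and 0 to 2 for the sex differences of paternal, maternal and dual exposure, 0 to 2 for paternal, 0 to 1 for maternal and 0 to 2 for dual exposure in females. The count of 6 came without female control replicate 1 and also without replicate 2, and the count of 4 and those above 0 for the sex differences and for single exposures in females came without female control replicate 2. Protein-coding genes alone shift the median of all genes by 0.04 to 0.05 (log2) in the pooled comparisons with dual exposure and by 0.08 in females, and test fewer genes. Otherwise the cause was not tested.

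Signs changed for the following values, which did not pass in the model of all 16 libraries. Pgk1 with paternal exposure became -0.0002 with no filter, and Ddit4 with dual exposure became 0.0289 with protein-coding genes alone. Without single libraries, paternal exposure gave -0.10 to 0.20 for Vegfa and -0.0234 to 0.0394 for Pgk1. Maternal exposure gave -0.17 to 0.0166 for Ddit4, -0.24 to 0.0713 for Vegfa, -0.0149 to 0.10 for Ldha and -0.0534 to 0.0067 for Pgk1. Dual exposure gave -0.0342 to 0.10 for Egln3, -0.0482 to 0.0087 for Ddit4, -0.25 to 0.0581 for Vegfa and -0.13 to 0.19 for Hk2. Of these, Vegfa without female control replicate 1 passed (edgeR adjusted p = 0.0392). The spread between the 2 libraries of a group exceeded counting noise in each group, most in female controls (4.08 against 0.455).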

Other observations

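Ldhb, the B subunit of lactate dehydrogenase, had 89.7 ± 3.804 CPM in male and 121 ± 12.2 CPM in female controls (SD, n = 2), and the male minus female effect of dual exposure was 0.57 ± 0.13 on the log2 scale (edgeR adjusted p = 0.0235), lost with protein-coding genes alone (0.113). The same difference was 0.56 for paternal and 0.63 for maternal exposure, neither of which passed, and all 3 share the control libraries. The male minus female effect of dual exposure also passed for Pfkp at -1.29 ± 0.32 (edgeR adjusted p = 0.0357), Bpgm at 0.54 ± 0.14 (0.0436) and Wsb1 at -0.65 ± 0.15 (0.0274), all lost with protein-coding genes alone (0.11, 0.163 and 0.0764). Lox, a lysyl oxidase and HIF target that connective tissue expresses, ranged from 1.72 CPM in 1 female control library to 34.0 CPM. Its departure from additivity was -1.67 ± 0.42 (edgeR adjusted p = 0.0332), lost with protein-coding genes alone (0.143). Meningeal markers spanned 84.6 to 617 CPM over the 16 libraries, and their part in the Lox result was not tested.

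Genes whose log2 CPM was most like that of 3 members over the 16 libraries, after taking away the mean of each sex and among 10146 genes, are given as a description. For Slc2a1 they were Grn (Pearson's r = 0.924), Acvrl1 (0.919), Sparc (0.919) and Ephb4 (0.902). For Egln3 they were Pmp22 (r = 0.876), Adgrl4 (0.869), Alcam (0.864) and Igfbp3 (0.861). For Vegfa they were Prex2 (r = 0.884), Olfm3 (0.866), Adamts1 (0.851) and Slc22a8 (0.834). The libraries share exposure groups, and the largest of 10146 coefficients is high by selection.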
